A study of Homo sapiens with 9 samples.

Results

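The comparison described here set 3 RNA-seq libraries of LAN5 cells that received an siRNA against MYCN (siMYCN) beside 3 libraries of cells that received a control siRNA (siCTR), so it used 6 of the 9 libraries of the series. The samples were chosen by the siRNA named in their labels, and all genes of the table entered the comparison. LAN5 is a long-established human neuroblastoma line with MYCN amplified to many copies. Cells of every group were nucleofected (a form of electroporation) with an siRNA, a short RNA that directs the degradation of a matching transcript, then kept in RPMI-1640 with fetal calf serum and collected 72 h later. The remaining 3 libraries came from cells given an siRNA against HAND2 (siHAND2) and were used for the estimate of spread and for a direct comparison. The labels name 1 siRNA per target, numbered 2 for MYCN and 3 for HAND2 in the library names, so effects on other transcripts of that siRNA cannot be told apart from effects of less MYCN. They do not say whether replicates were separate cultures, so p-values measure only the spread between these libraries, which may be technical.

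MYCN is a transcription factor of the MYC family. It pairs with MAX and binds the DNA sequence CACGTG, called an E-box, near the start of many genes, and MAX can also pair with the MXD proteins, MNT and MGA, which occupy the same sites and lower transcription. Genes for ribosomes, nucleotide synthesis and sugar use are textbook targets that MYC proteins raise. In sympathetic neuroblasts, the cells neuroblastoma arises from, high MYCN goes with growth and low differentiation, and differentiation brings neurite, synapse and catecholamine genes.

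Values are CPM, the reads of a gene after the authors scaled each library to a common total. The size of the smallest step between low values put the reads assigned to genes at 32.7 M, 26.7 M and 21.1 M in the siCTR libraries and at 24.8 M, 26.1 M and 29.2 M in the siMYCN libraries. Log2 fold changes are differences of group means of log2(CPM + 1), which understates the change of genes near 1 CPM. Changes written as a fold (such as 1.26-fold) or as a percent of siCTR are ratios of group means of CPM, with nothing added. Of 25084 genes, 14495 reached 1 CPM in at least 3 of the 9 libraries and were tested with limma. A gene is said to have risen or fallen where its Benjamini-Hochberg adjusted p, over all 14495 genes, was under 0.05. In bulk RNA, fewer cells of a type and less RNA per cell cannot be told apart.

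MYCN (chr2:15940550-15947007, plus strand, GRCh38) was measured at 1848, 1894 and 1786 CPM in the siCTR libraries and at 1338, 1245 and 1285 CPM in the siMYCN libraries. All siMYCN libraries were below all siCTR libraries, and the siMYCN mean was 70.0% of the siCTR mean. The log2 fold change was -0.51 (SE 0.05, n = 3 libraries per group, limma adjusted p = 7.15e-07). MYCN was lower still in the siHAND2 libraries, at 898, 969 and 877 CPM, which is 0.50 below siMYCN on the log2 scale (adjusted p = 6.21e-07). The knockdown of the targeted transcript at 72 h was therefore partial, and the siMYCN group did not hold the lowest MYCN level of the series. MYCNOS, a transcript from the opposite strand of the MYCN locus, rose from 45.5, 46.0 and 45.6 CPM to 61.3, 67.8 and 56.0 CPM. Whether the reads were counted by strand is not given in the sources used here, so reads of MYCN and MYCNOS may have been exchanged where they overlap. HAND2, the other targeted transcription factor, rose slightly under siMYCN, from 516, 499 and 489 CPM to 588, 557 and 568 CPM (log2 fold change 0.19, adjusted p = 0.00183).

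Across all genes tested, 3556 rose, which is 24.5% of those tested, and 1653 fell, which is 11.4%. Together 35.9% were called in either direction. Most changes were small, with a median size of 0.29 on the log2 scale among the genes that rose and 0.28 among those that fell. Only 33 genes rose by at least 1 on the log2 scale and 15 fell by as much. The genes that fell held 238501 CPM of the siCTR mean and 190144 CPM of the siMYCN mean. CPM is a share of the library, so a fall in abundant genes raises the CPM of others even where their transcripts per cell are the same. After median-ratio rescaling 2406 genes rose and 2353 fell, and rises made up 50.6% of calls in place of 68.3%. The median of all genes was 0.06 as deposited and 0.01 after that rescaling, so a change near 0.06 lies at the centre of these data.

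**Figure D1:**
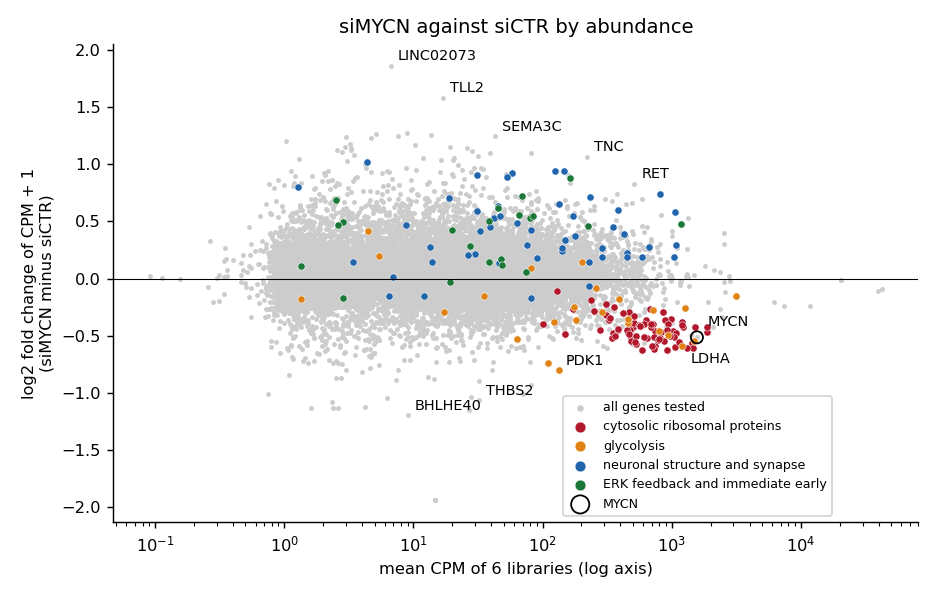
Log2 fold change of CPM + 1 (siMYCN minus siCTR, vertical axis) against mean CPM over the 6 libraries (horizontal log axis), 1 point per gene tested, with 4 gene lists coloured and MYCN circled. All 78 ribosomal protein points lie below 0, and MYCN itself is at -0.51.

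The clearest falls were in the machinery that makes ribosomes. All 78 genes of the cytosolic ribosomal proteins fell, with a median log2 fold change of -0.45, where 11.4% of all genes tested fell and the median of all genes was 0.06. Their summed level was 61894, 64540 and 61549 CPM in the siCTR libraries and 45613, 46606 and 44253 CPM in the siMYCN libraries. The means were 62661 ± 1636 and 45491 ± 1181 CPM (SD, n = 3), so the siMYCN cells gave these genes a clearly smaller share of their reads, with no overlap between the groups. RPL12, a protein of the stalk of the large subunit, went from 706, 751 and 693 CPM to 475, 468 and 448 CPM (log2 fold change -0.63, SE 0.04, adjusted p = 5.75e-08). RPS18, a protein of the head of the small subunit, went from 1109, 1140 and 1108 CPM to 701, 794 and 689 CPM, which is 65.1% of siCTR. RPL26, of the large subunit, stood at 65.1% of siCTR as well, at 567 to 580 CPM in siMYCN against 853 to 898 CPM in siCTR. Ribosomal protein genes have many near-identical pseudogenes, and how reads that match several genes were counted is not given, so single values are uncertain. RPL5P34, such a pseudogene, was itself among the larger falls, from 8.07 to 10.3 CPM to 2.18 to 7.76 CPM.

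Factors that process and assemble ribosomal RNA in the nucleolus fell as well, in 42 of 48 genes with none higher (median -0.35). NPM1, the abundant nucleolar chaperone nucleophosmin, had 1754, 1763 and 1711 CPM in siCTR and 1146, 1125 and 1152 CPM in siMYCN. Its siMYCN mean was 65.5% of siCTR (log2 fold change -0.61, SE 0.05, adjusted p = 1.11e-07). RRP12, needed for export and maturation of both subunits, went from 43.0 to 48.0 CPM down to 27.9 to 30.8 CPM. NOB1, the nuclease that makes the final cut in 18S ribosomal RNA, fell to 65.7% of siCTR. For RRP12 and NOB1, too, the siMYCN libraries all lay below the siCTR libraries.

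RNA polymerases I and III, which transcribe ribosomal and transfer RNA, showed a mixed picture, with 13 of 35 genes lower and 2 higher (median -0.08). Among members with a mean of at least 5 CPM the 3 largest falls were CD3EAP, a subunit of polymerase I, at 70.0% of siCTR, GTF3A, which starts 5S rRNA transcription, at 74.7%, and TAF1D, of the polymerase I initiation complex, with 121 to 129 CPM in siCTR and 88.0 to 98.8 CPM in siMYCN. BRF1, of the polymerase III initiation factor, rose 1.26-fold. UBTF, the polymerase I activator, rose 1.14-fold, from 152 to 158 CPM up to 162 to 189 CPM, with an adjusted p of 0.0384. That call was lost under both rescalings, and without siMYCN replicate 1 its adjusted p was 0.16.

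Translation factors fell in 25 of 45 genes and rose in 2 (median -0.19). EIF3E, of the initiation complex on the small subunit, stood at 72.0% of siCTR, EEF1G, of the elongation factor that loads transfer RNA, at 74.4%, and EIF4B, a helper of the cap-binding helicase, at 74.6%. PABPC1, which binds the poly(A) tail, went from 387, 402 and 345 CPM to 252, 246 and 243 CPM. EEF1A2, the form of elongation factor 1A found in neurons and muscle, rose from 203, 205 and 178 CPM to 243, 229 and 231 CPM, and EIF4G2 rose 1.19-fold. Mitochondrial ribosomal proteins fell in 30 of 75 genes and rose in 1 (median -0.13), and 44 fell under either rescaling. MRPS27 at 73.0%, MRPL10 at 75.2% and MRPL11 at 75.7% of siCTR were their largest falls, and MRPL49 was the gene that rose, 1.10-fold, with a call that was lost under both rescalings and without siCTR replicate 2 (adjusted p = 0.14).

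**Figure D2:**
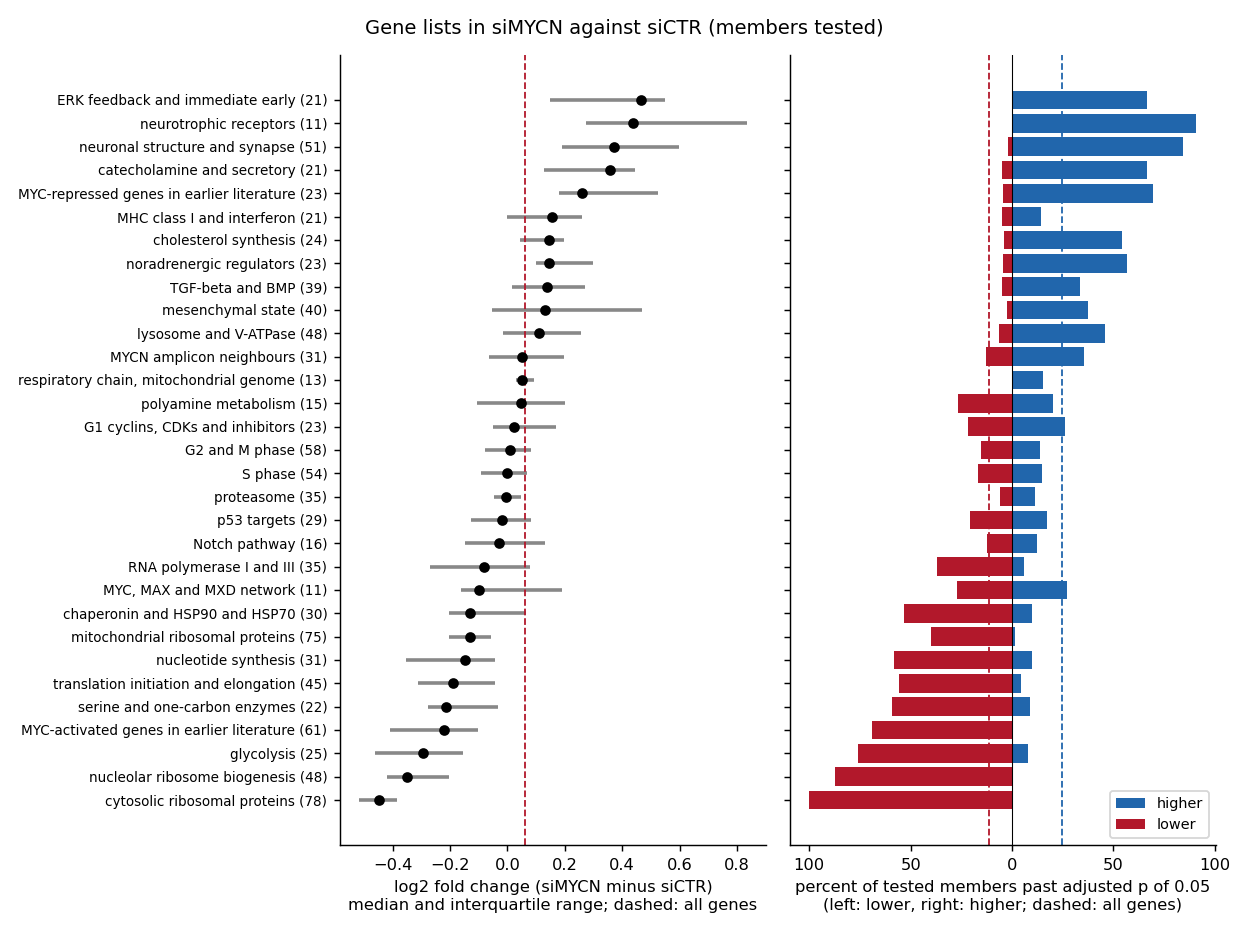
Gene lists in siMYCN against siCTR, with the number of members tested in parentheses. The left panel gives the median (point) and interquartile range (line) of log2 fold change, and the right panel the percent of tested members that fell (red, to the left) or rose (blue, to the right). Dashed lines mark all 14495 genes, at a median of 0.06, 11.4% lower and 24.5% higher.

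Enzymes of sugar use fell in 19 of 25 genes of the glycolysis list and rose in 2 (median -0.29). PDK1, a mitochondrial kinase that inhibits pyruvate dehydrogenase, had 172, 173 and 165 CPM in siCTR and 95.8, 102 and 93.5 CPM in siMYCN (log2 fold change -0.80, SE 0.07, adjusted p = 3.43e-07). HK2, the hexokinase that traps glucose in the cell, had 148, 136 and 129 CPM against 81.9, 82.9 and 81.7 CPM. LDHA, the lactate dehydrogenase subunit that turns pyruvate into lactate, had 1451, 1455 and 1394 CPM against 937, 979 and 931 CPM. In all 3 genes the groups were far apart, and the siMYCN means were 57.1%, 59.6% and 66.2% of siCTR. ENO2, the neuronal enolase, was a member that rose, 1.11-fold, from 181 to 200 CPM up to 210 to 221 CPM, a call lost under both rescalings and without siCTR replicate 3 (adjusted p = 0.117).

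Supply of nucleotides and one-carbon units fell too. Among nucleotide synthesis genes 18 of 31 fell and 3 rose (median -0.15), and among serine and one-carbon enzymes 13 of 22 fell and 2 rose (median -0.22). IMPDH2, which commits purines to guanine nucleotides, went from 220, 227 and 212 CPM to 163, 154 and 156 CPM. NME1, which phosphorylates nucleoside diphosphates, stood at 74.8% of siCTR and PFAS, of the purine pathway, at 75.3%. DCK, which salvages deoxynucleosides, rose 1.24-fold, CTPS2 rose 1.13-fold, and RRM2, of ribonucleotide reductase, rose 1.09-fold. The calls of CTPS2 and RRM2 were lost under both rescalings, and that of RRM2 also without siCTR replicate 2 (adjusted p = 0.108). SHMT2, the mitochondrial enzyme that takes a one-carbon unit from serine, stood at 73.6% of siCTR and AHCY, which clears the product of methylation, at 76.5%. MTHFD2, which oxidises the folate-bound unit, went from 320, 312 and 302 CPM to 236, 226 and 239 CPM. SLC1A4, a neutral amino acid carrier, rose 1.16-fold.

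Polyamine genes did not move as a block, with 4 of 15 lower (26.7%) and 3 higher (20%). Among all genes tested 11.4% were lower and 24.5% higher, and their median of 0.06 was near the 0.05 of this list. ODC1, the rate-limiting enzyme and a classic MYC target that lies on the same chromosome arm as MYCN, fell from 267, 276 and 261 CPM to 201, 194 and 199 CPM. SRM, which makes spermidine, stood at 74.6% of siCTR, and MTAP, of the salvage branch, at 84.0%. OAZ2, an antizyme that marks ODC1 protein for degradation, rose 1.19-fold, and AZIN1, which holds antizymes off, rose 1.15-fold. Chaperones fell in 16 of 30 genes (53.3%) and rose in 3 (10%), with a median of -0.13. HSPE1 and HSPD1, the mitochondrial chaperonin pair that share a promoter region, stood at 69.6% and 76.3% of siCTR, and CCT8, of the cytosolic chaperonin, at 82.3%. HSPA5, the chaperone of the endoplasmic reticulum, rose 1.15-fold, a call lost under both rescalings and without siCTR replicate 3 (adjusted p = 0.0504).

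Of genes listed from earlier literature, 42 of 61 that MYC proteins activate fell and none rose (median -0.22), while 16 of 23 that they repress rose and 1 fell (median 0.26). These lists share members with the groups above. SLC7A5, the large neutral amino acid carrier, went from 113, 109 and 109 CPM to 79.9, 64.1 and 74.5 CPM. CLU, which encodes clusterin, rose from 11.6, 13.3 and 11.1 CPM to 21.7, 21.7 and 22.8 CPM, and DKK3, a secreted Dickkopf-family protein, rose from 24.6, 26.0 and 23.9 CPM to 41.8, 41.9 and 41.9 CPM. The member of the second list that fell was MXI1.

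Genes of the MAX network itself changed in both directions, 3 of 11 higher and 3 lower. Each count is 27.3% of those tested, beside 24.5% higher and 11.4% lower among all genes tested. MXI1, an MXD-family partner of MAX, went from 94.3, 93.6 and 86.7 CPM to 63.4, 63.2 and 64.5 CPM. MAX fell to 85.0% of siCTR (42.8, 43.4 and 40.5 CPM to 36.9, 33.8 and 37.0 CPM), and MLXIP, a glucose-sensing relative, to 88.9%, a call lost without siMYCN replicate 2 (adjusted p = 0.0699). MXD4 rose 1.23-fold, and MXD3 rose 1.14-fold with an adjusted p of 0.0483, overlapping groups and no call without siMYCN replicate 2 (adjusted p = 0.195). MYC, singled out here after its values were seen, had 0.642, 0.374 and 0.617 CPM in siCTR and a mean of 1.89 CPM in siMYCN. It is counted among the 3, but it was under 1 CPM in every siCTR library and entered the test only through the libraries where it was higher, so its call is no support for a change.

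The E-box was looked for in the RefSeq promoter windows of GRCh38.p14, which run from 250 bases before to 50 bases after the start of a gene. Of the genes tested, 10364 had a window. CACGTG, which reads the same on both strands, was in 7.43% of all 27305 windows in the table and in 10.3% of windows of genes tested. It was in 233 of 1265 windows of genes that fell, or 18.4%, in 188 of 2727 windows of genes that rose, or 6.89%, and in 10.1% of windows of genes that were not called. The share ordered with the size of the change. It was 27.3% for falls of 0.5 or more on the log2 scale, 18.3% for falls of 0.25 to 0.5 and 16.3% for smaller falls. For rises the same classes held it in 3.88%, 6.88% and 7.79%. The related motif CACGCG, searched on both strands as CACGCG or CGCGTG, was in 25.4% of windows of genes that fell, 15.0% of those that rose and 18.8% of all tested; the motifs share the letters CACG but not a full site, and a window may hold both. Median GC content was 64.3% in genes that fell, 67.3% in genes that rose and 65.3% in all tested; its part in the shares was not tested.

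Gene groups that fell differed in this feature. CACGTG was in 17 of 39 windows of nucleolar factors, or 43.6%, and in 9 of 36 windows of translation factors, or 25%. It was in 3 of 62 windows of cytosolic ribosomal proteins, or 4.84%, although all of their genes fell. Among groups that rose it was in 1 of 34 windows of neuronal structure genes and in 0 of 14 windows of ERK feedback genes. A match is only a run of letters and shows no binding.

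**Figure D3:**
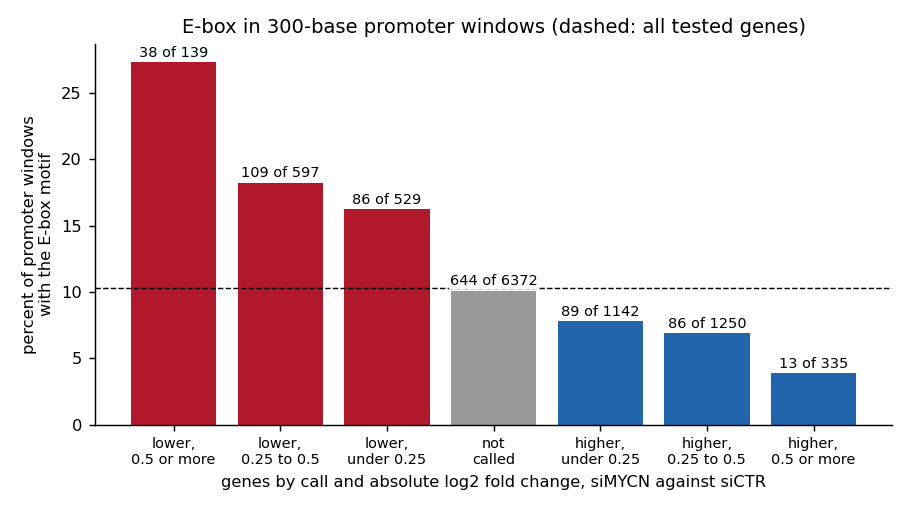
Percent of RefSeq promoter windows that hold CACGTG (vertical axis) in genes grouped by call and by absolute log2 fold change in siMYCN against siCTR (horizontal axis), with counts above the bars. The share goes from 27.3% in the largest falls to 3.88% in the largest rises, and the dashed line marks the 10.3% of all genes tested.

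Some named genes were left out of the search for single sites but are included in the totals given here, so the counts are minimums. Of the named genes with a window, at least 13 of 57 that fell and at least 4 of 62 that rose held CACGTG. Their E-boxes are shown with up to 10 bases on each side so that the flanks can be compared; capitals mark the E-box, sequences run 5′ to 3′ on the strand of the gene, and positions are GRCh38.
BHLHE40 (chr3:4979187-4979207, plus strand): tccaaCACGTGagactcatgt
TAF4B (chr18:26226252-26226277, plus strand): ttgcccctccCACGTGataggtttct
BNIP3 (chr10:131982042-131982067, minus strand): gcacgcgccgCACGTGccacacgcac
SLC7A5 (chr16:87869622-87869647, minus strand): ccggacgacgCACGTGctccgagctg
LDHA (chr11:18394368-18394393, plus strand): actcccagcgCACGTGgagcagtctg
LDHA (chr11:18394466-18394491, plus strand): gcccgactcaCACGTGggttcccgca
HSPE1 (chr2:197500347-197500372, plus strand): gtgattttttCACGTGtcgccagggc
CTSF (chr11:66568714-66568739, minus strand): atataacaagCACGTGatagaggtca
CTSF (chr11:66568642-66568667, minus strand): ctgcgcgcccCACGTGcctcctgtaa
EIF4B (chr12:53006424-53006449, plus strand): ccgctataatCACGTGattgcctcat
NME1 (chr17:51153583-51153608, plus strand): tgctgcgaacCACGTGggtcccgggc
SRM (chr1:11060202-11060227, minus strand): ggccgggcccCACGTGgcccctggag
HSPD1 (chr2:197500347-197500372, minus strand): gccctggcgaCACGTGaaaaaatcac
AEN (chr15:88621338-88621363, plus strand): ttccggacgcCACGTGcagaccggaa
CDK6 (chr7:92836528-92836553, minus strand): aggccgcggaCACGTGcggagagccg
MRPL49 (chr11:65121933-65121953, plus strand): cggctCACGTGgggaaggcca
MXD4 (chr4:2262332-2262357, minus strand): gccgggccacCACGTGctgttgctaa
DCK (chr4:70993523-70993548, plus strand): ccccggccttCACGTGacctggcgtg
ATP6V0D1 (chr16:67481201-67481226, minus strand): cccttatggtCACGTGaggcgcttgc
HSPE1 and HSPD1, which lie head to head, share 1 site, read here from either strand. LDHA and CTSF each held a pair of E-boxes. CTSF encodes a lysosomal protease that fell to 71.0% of siCTR, and AEN, a nuclease among p53 targets, fell to 82.3%.

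Among the genes shown, the E-boxes of the 4 with the largest falls lay 245 (BHLHE40), 183 (TAF4B), 134 (BNIP3) and 130 (SLC7A5) bases before the start. That of ATP6V0D1, the largest rise among the genes shown, lay 59 bases before the start. For these genes the whole 250 bases before the start are given as context, with the E-box in capitals.
BHLHE40 (chr3:4979187-4979436, plus strand): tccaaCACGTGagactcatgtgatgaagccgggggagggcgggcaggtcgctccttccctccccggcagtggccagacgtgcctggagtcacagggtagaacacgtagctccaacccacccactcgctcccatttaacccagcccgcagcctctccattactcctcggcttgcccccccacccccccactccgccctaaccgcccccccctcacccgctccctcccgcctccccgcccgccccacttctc
TAF4B (chr18:26226195-26226444, plus strand): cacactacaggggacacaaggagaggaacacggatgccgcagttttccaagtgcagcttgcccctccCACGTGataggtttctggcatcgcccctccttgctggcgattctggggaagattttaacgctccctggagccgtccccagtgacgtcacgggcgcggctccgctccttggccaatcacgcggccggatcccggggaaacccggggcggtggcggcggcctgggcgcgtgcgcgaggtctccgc
BNIP3 (chr10:131981924-131982173, minus strand): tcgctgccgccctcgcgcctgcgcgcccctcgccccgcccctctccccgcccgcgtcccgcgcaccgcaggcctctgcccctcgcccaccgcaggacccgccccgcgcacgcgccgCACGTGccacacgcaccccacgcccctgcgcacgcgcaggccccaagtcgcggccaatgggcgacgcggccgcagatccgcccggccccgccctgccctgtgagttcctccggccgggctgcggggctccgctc
SLC7A5 (chr16:87869508-87869757, minus strand): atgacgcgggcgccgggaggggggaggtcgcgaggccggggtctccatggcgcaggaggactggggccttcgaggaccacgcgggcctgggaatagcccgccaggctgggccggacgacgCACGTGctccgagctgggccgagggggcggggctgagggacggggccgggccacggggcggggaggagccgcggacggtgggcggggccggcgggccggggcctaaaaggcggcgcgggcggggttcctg
ATP6V0D1 (chr16:67481158-67481407, minus strand): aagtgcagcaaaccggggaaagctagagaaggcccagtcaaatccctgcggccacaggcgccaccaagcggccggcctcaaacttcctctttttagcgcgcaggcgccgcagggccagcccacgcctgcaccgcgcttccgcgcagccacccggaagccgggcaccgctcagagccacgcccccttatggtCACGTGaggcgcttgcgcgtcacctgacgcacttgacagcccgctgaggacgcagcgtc
BHLHE40 is a clock-linked repressor that itself binds E-boxes, and it fell from 14.5, 13.9 and 10.6 CPM to 4.71, 5.18 and 5.28 CPM. TAF4B, a subunit of the general factor TFIID, fell from 37.4, 38.7 and 37.2 CPM to 18.0, 16.8 and 18.9 CPM. BNIP3, which marks mitochondria for removal, fell from 202, 199 and 193 CPM to 119, 129 and 117 CPM. ATP6V0D1, of the proton pump of lysosomes and vesicles, rose from 43.1, 46.0 and 47.7 CPM to 57.6, 56.6 and 62.2 CPM, so the motif was also present beside genes that rose.

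The clearest rises were in genes of neuronal form and signalling. Of 51 genes for neuronal structure and synapse 43 rose and 1 fell (median 0.37), where 24.5% of all genes tested rose. L1CAM, an adhesion molecule of growing axons, had 86.7, 86.7 and 81.0 CPM in siCTR and 168, 162 and 164 CPM in siMYCN (log2 fold change 0.95, SE 0.05, adjusted p = 7.75e-09). DCX, a microtubule-binding protein of migrating neurons, had 101, 98.6 and 98.5 CPM against 181, 183 and 214 CPM. STMN4, a stathmin that regulates microtubules, had 40.2, 40.2 and 37.6 CPM against 75.7, 74.9 and 76.5 CPM. In these 3 genes every siMYCN library was well above every siCTR library. DPYSL3, a growth cone protein, rose 1.68-fold to 993 to 1046 CPM. SNPH, which anchors mitochondria in axons, rose 2.33-fold, and ACHE, which breaks down acetylcholine, rose 2.46-fold. NEFH, the heavy neurofilament, was the member that fell, to 88.9% of siCTR, and its adjusted p was 0.192 without siMYCN replicate 2.

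Receptors for neurotrophic factors rose in 10 of 11 genes with none lower (median 0.44). RET, the receptor for GDNF-family ligands, had 381, 363 and 365 CPM in siCTR and 683, 639 and 655 CPM in siMYCN (log2 fold change 0.83, SE 0.04, adjusted p = 2.44e-09). NTRK2, the receptor for BDNF, rose 1.38-fold. The RET libraries of the 2 groups were well apart.

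Catecholamine and secretory granule genes rose in 14 of 21 genes and fell in 1 (median 0.36). SLC6A2, the noradrenaline transporter that takes up MIBG, had 25.4, 22.0 and 26.1 CPM in siCTR and 56.1, 50.4 and 53.7 CPM in siMYCN. CHGB, a granule protein, rose from 246, 237 and 208 CPM to 381, 376 and 367 CPM, and CYB561, which carries electrons into granules for noradrenaline synthesis, rose 2.73-fold. CHGA, the other main granin, had 373 CPM in siCTR and 382 CPM in siMYCN, with an adjusted p of 0.707. Noradrenergic regulators rose in 13 of 23 genes and fell in 1 (median 0.14), and 8 or 9 rose under the rescalings. ZNF536, TBX3 and GATA2 were the largest of these rises, with log2 fold changes of 0.59, 0.59 and 0.47.

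Genes that ERK signalling switches on, many of which dampen that pathway, rose in 14 of 21 genes with none lower (median 0.47). DUSP6, the phosphatase that turns ERK off, had 118, 118 and 105 CPM in siCTR and 204, 208 and 218 CPM in siMYCN (log2 fold change 0.88, SE 0.05, adjusted p = 1.39e-08). SPRY2, which blocks receptor signalling upstream, rose from 52.5, 49.6 and 52.7 CPM to 87.8, 84.3 and 85.7 CPM, and PHLDA1 rose 1.54-fold. TRIB2, a pseudokinase encoded on the same chromosome arm as MYCN, rose 1.67-fold, the largest rise among the listed neighbours of the MYCN locus. Of 31 such neighbours tested, 11 rose (35.5%) and 4 fell (12.9%), beside 24.5% and 11.4% of all genes tested. Their median of 0.05 was near the 0.06 of all genes. Without siMYCN replicate 3, 6 of these neighbours rose, and 6 or 7 rose under the rescalings. TMEM151B and CHRNA3, a nicotinic receptor subunit of sympathetic neurons, rose 1.80-fold and 1.88-fold among genes above 100 CPM.

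**Figure D4:**
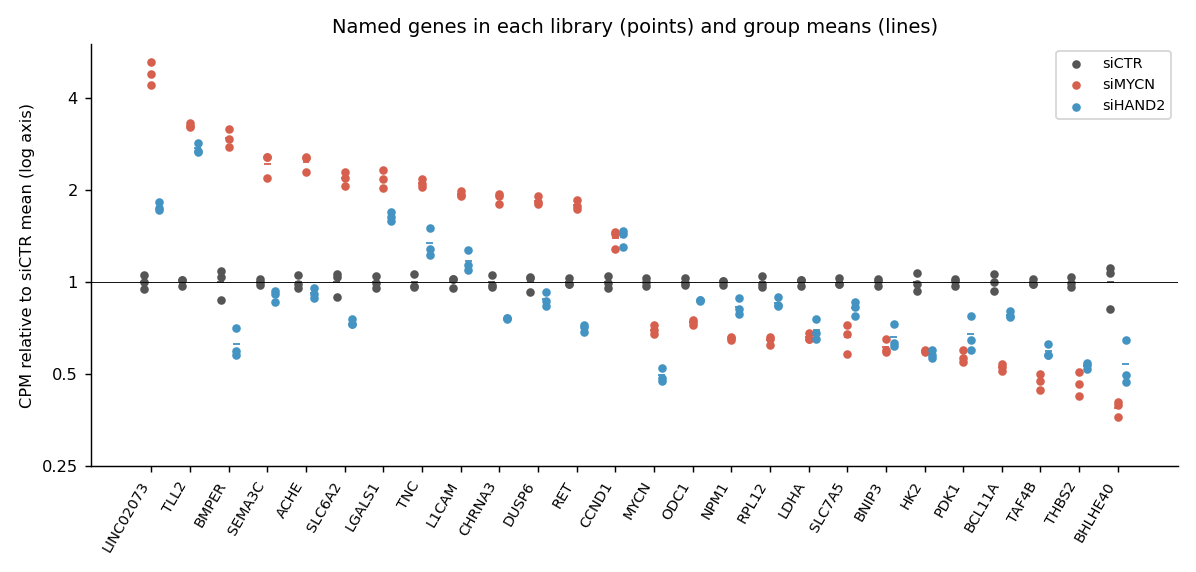
CPM of named genes in each library relative to the siCTR mean (vertical log axis, 1 is the siCTR mean), with points for the 3 libraries of siCTR, siMYCN and siHAND2 and short lines for group means. The genes shown run from LINC02073, which rose, to BHLHE40, which fell; RET, CHRNA3 and SLC6A2 lie above 1 in siMYCN and below 1 in siHAND2.

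Cell cycle lists had medians near 0. S phase genes rose in 8 (14.8%) and fell in 9 (16.7%) of 54 (median -0.00). G2 and M phase genes rose in 8 (13.8%) and fell in 9 (15.5%) of 58 (median 0.01). Among all genes tested 24.5% rose and 11.4% fell, with a median of 0.06, so rises were fewer and falls more frequent in both lists. Under median-ratio rescaling the counts were 2 higher and 18 lower for S phase and 3 higher and 14 lower for G2 and M phase, so the balance depended on scaling. It also depended on single libraries, since 4 S phase genes rose and 2 fell without siMYCN replicate 3, and 3 genes of G2 and M phase rose without siMYCN replicate 1. CLSPN, of the replication checkpoint, rose 1.23-fold and UNG, which removes uracil from DNA, fell to 78.4% of siCTR. CKAP2L, of the spindle, rose 1.20-fold and CKS2, a partner of cyclin-dependent kinases, fell to 82.5%. Among G1 genes 6 of 23 rose (26.1%) and 5 fell (21.7%), beside 24.5% and 11.4% of all genes tested. CCND1, cyclin D1, rose from 1042, 950 and 991 CPM to 1448, 1273 and 1429 CPM, and CDKN2D, the CDK4 and CDK6 inhibitor p19, rose from 13.6, 14.5 and 12.7 CPM to 27.6, 25.1 and 26.8 CPM. CDK6, the kinase partner of cyclin D1, fell to 83.0% of siCTR. An activator and an inhibitor of the same step thus rose side by side.

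p53 targets rose in 5 (17.2%) and fell in 6 (20.7%) of 29 (median -0.02), beside 24.5% and 11.4% of all genes tested. TP53I3 rose 1.79-fold, from 20.6, 18.5 and 22.2 CPM to 38.1, 34.0 and 37.7 CPM, and PLK2 rose 1.43-fold, while CCNG1 fell to 77.7% of siCTR. CDKN1A, the p21 inhibitor, had 47.0 ± 2.04 CPM in siCTR and 47.1 ± 3.07 CPM in siMYCN (SD, n = 3, limma adjusted p = 0.99). Proteasome genes were called in 6 of 35, Notch genes in 4 of 16, interferon and MHC class I genes in 4 of 21 and genes of the mitochondrial genome in 2 of 13, all at or below the 35.9% of genes called overall. HEY1 and MAML2 were the Notch genes that rose, 1.55-fold and 1.49-fold.

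Extracellular matrix and mesenchymal genes rose in 15 of 40 (37.5%) and fell in 1 (2.5%), beside 24.5% and 11.4% of all genes tested. Their median was 0.13, where that of all genes was 0.06. Under median-ratio rescaling and quantile normalization 15 of the list rose as well, but 5 and 6 fell, with medians of 0.08 and 0.07. TNC, a matrix glycoprotein, had 151, 138 and 137 CPM in siCTR and 309, 289 and 297 CPM in siMYCN. LGALS1, the sugar-binding protein galectin-1, had 48.9, 53.4 and 50.7 CPM against 111, 118 and 103 CPM, and LUM, a collagen-binding proteoglycan, had 8.99, 9.21 and 9.25 CPM against 16.5, 17.6 and 17.5 CPM. In each of the 3 the groups did not overlap. THBS2, a matricellular thrombospondin, was the member that fell, to 46.7% of siCTR. LOX, which cross-links collagen and was not in this list, fell to 52.4%. Markers of other cell types were read beside this list. Of the 8 fibroblast markers measured, 7 reached 1 CPM, with a summed level of 288 to 292 CPM in siCTR and 347 to 350 CPM in siMYCN. Of the 7 that were tested, 6 rose and none fell, with a median log2 fold change of 0.68. Schwann cell markers summed to 98.0 to 106 CPM and 152 to 157 CPM, 3 of 6 reaching 1 CPM, and PMP22, a membrane protein also made outside Schwann cells, held a mean of 99.8 CPM and 150.3 CPM of these sums. The part of either marker set in the result was not tested. Leukocyte markers summed to less than 1 CPM in every library, with 0 of 4 reaching 1 CPM, and endothelial and epithelial markers had 1 of 7 and 1 of 4 reaching it. All 11 sympathetic neuroblast markers reached 1 CPM, at 2826 to 2985 CPM in siCTR and 3484 to 3604 CPM in siMYCN, which fits the labelled cell type.

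Among secreted and signalling genes, TGF-beta and BMP genes rose in 13 (33.3%) and fell in 2 (5.13%) of 39, beside 24.5% and 11.4% of all genes tested. TLL2, a protease of the BMP1 family, rose 3.25-fold and GREM1, a BMP antagonist, rose from 65.2, 61.3 and 65.2 CPM to 82.3, 83.3 and 91.9 CPM. INHBA, an activin subunit, rose 1.36-fold, and LTBP1, which stores latent TGF-beta in the matrix, fell to 69.3% of siCTR. BMPER, a secreted BMP regulator, rose from 2.84, 2.28 and 2.70 CPM to 7.21, 7.67 and 8.22 CPM. Lysosome genes rose in 22 (45.8%) and fell in 3 (6.25%) of 48, though 14 or 13 rose under the rescalings. Cholesterol synthesis genes rose in 13 (54.2%) and fell in 1 (4.17%) of 24, with 6 or 7 higher under the rescalings. Of all 14495 genes tested, 24.5% rose as deposited, and 2406 or 2333 genes rose under the rescalings. ATP6V1G2, of the same pump as ATP6V0D1, rose 1.64-fold, and TM7SF2, of sterol synthesis, rose by 0.45 on the log2 scale.

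Of the largest changes in single genes that averaged 5 CPM or more and whose groups did not overlap, LINC02073, a long noncoding RNA, rose 4.80-fold, C7, a complement component, 2.70-fold, SGK1, a kinase that acts downstream of PI3K, 2.58-fold, and OPTN, an autophagy receptor, 2.23-fold. SEMA3C, a secreted guidance protein, went from 25.5, 25.0 and 24.3 CPM to 54.6, 63.7 and 64.0 CPM. Large falls under the same conditions were SNORD3B-2, a U3 small nucleolar RNA, at 43.9% of siCTR, and GABRA5, a GABA receptor subunit, at 42.3%. BCL11A, a zinc finger repressor, fell from 44.9, 42.2 and 39.4 CPM to 22.8, 22.2 and 21.6 CPM. YBX3, a DNA- and RNA-binding cold shock protein, fell to 52.0%, FAM162A, a mitochondrial protein, to 49.2%, and DAAM2, of the formin family, to 51.9%. U3 copies are near-identical, so the value of SNORD3B-2 is uncertain.

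The direct comparison of siMYCN with siHAND2 showed where this response differed from that of another siRNA that lowered MYCN. Against siHAND2, 2242 genes were higher in siMYCN, which is 15.5%, and 1650 were lower, which is 11.4%, together 26.9% of genes tested. Cytosolic ribosomal proteins were lower in siMYCN in 72 of 78 genes with none higher (median -0.29). Nucleolar factors were lower in 19 of 48 (median -0.11). MYCN RNA was higher in siMYCN than in siHAND2, and HAND2 RNA stood at 54.2% of siCTR in siHAND2. The part of either transcript in these differences was not tested, and the data hold no protein values. RPL12 had 597 to 639 CPM in siHAND2 against 448 to 475 CPM in siMYCN (log2 difference -0.40, adjusted p = 3.21e-06). The glycolysis list did not part the groups in this way, with 1 gene lower and 6 higher in siMYCN (median 0.02). LDHA had 937 to 1088 CPM in siHAND2 and 931 to 979 CPM in siMYCN (log2 difference -0.07, SE 0.05, adjusted p = 0.306). HK2 had 78.2 to 82.9 CPM and 81.7 to 82.9 CPM, and CCND1 had 1292 to 1465 CPM and 1273 to 1448 CPM, so neither pair of groups was apart.

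Neuronal structure genes were higher in siMYCN than in siHAND2 in 31 of 51 and lower in 4 (median 0.27), catecholamine and secretory genes in 15 of 21 and lower in 2 (median 0.46), and ERK feedback genes in 12 of 21 and lower in 1 (median 0.36). RET had 267, 253 and 265 CPM in siHAND2 (log2 difference 1.33, adjusted p = 9.03e-13), SLC6A2 had 17.8, 17.8 and 18.5 CPM (1.51, adjusted p = 4.23e-11) and CHRNA3 had 83.8, 82.8 and 83.9 CPM (1.29, adjusted p = 5.79e-12). Each of these 3 genes was above all siCTR libraries in siMYCN and below all of them in siHAND2. Mesenchymal genes went the other way, with 20 of 40 lower in siMYCN than in siHAND2 and 5 higher (median -0.20). LUM had 49.8 to 58.2 CPM in siHAND2, so it was lower in siMYCN by a log2 difference of -1.61 (adjusted p = 1.89e-11), while TNC, at 174 to 213 CPM in siHAND2, was higher in siMYCN. INHBA had 63.8 to 76.1 CPM in siHAND2 against 30.2 to 32.5 CPM in siMYCN.

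**Figure D5:**
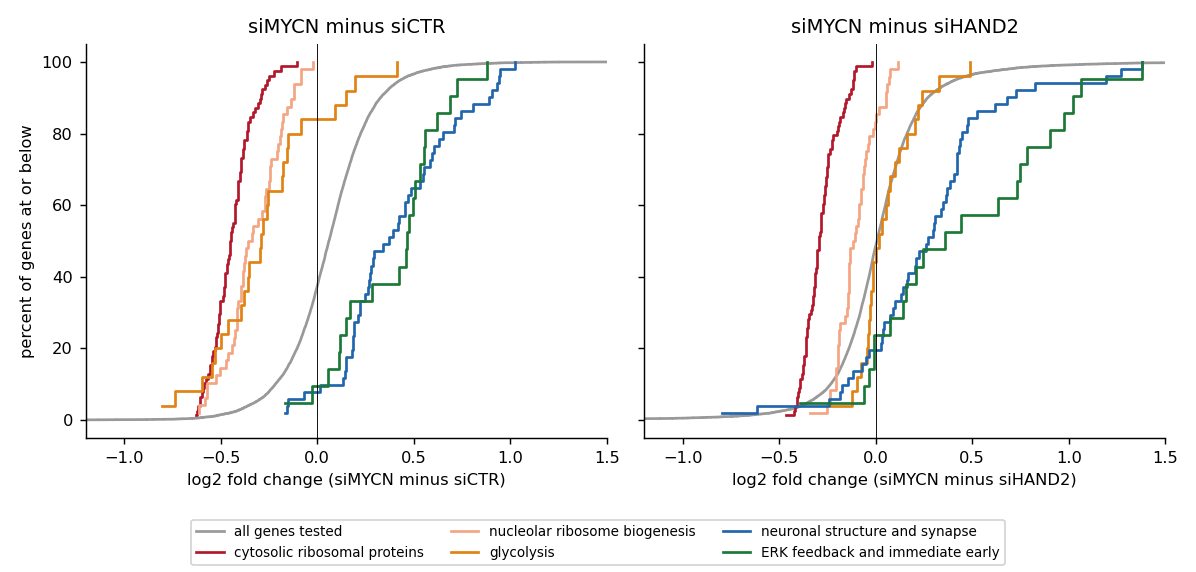
Cumulative percent of genes (vertical axis) at or below each log2 fold change (horizontal axis) for 5 gene lists and all genes tested, for siMYCN minus siCTR (left) and siMYCN minus siHAND2 (right). Ribosomal proteins lie to the left of all genes in both panels, at medians of -0.45 and -0.29, and glycolysis lies to the left only against siCTR, at -0.29 and 0.02.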

How the data were processed

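Total RNA of LAN5 cells was sequenced with standard Illumina libraries, per the labels' protocols. The authors deposited 1 table of CPM values for 25084 genes in 9 libraries, with a constant of 0.0001 added to every value. The submitters' processing notes name STAR 2.5.1, Partek, hg19 and GRCh37; how reads were counted, by strand or not, and what became of reads matching several genes is not given in the sources used here. Gene positions in the table match GRCh38 (91.4% of 18215 matched symbols start within 5000 bp of their RefSeq start), so coordinates are given as GRCh38.

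Depth was read from the smallest CPM step in each library; 79.5% to 81.0% of low values were whole multiples of it (within 0.02 of a step), too few for a count model. Genes that reached 1 CPM in 3 or more libraries were kept (14495, with 10589 left out). Group means of log2(CPM + 1) were compared with limma 3.58.1 under R 4.3.3, using lmFit, contrasts.fit and eBayes with trend, from 1 fit over the 9 libraries, with prior degrees of freedom of 10.1. All tests were two-sided with Benjamini-Hochberg adjustment over all genes tested and a threshold of 0.05. On simulated data for siMYCN against siCTR, 177 of 200 genes changed by 0.5 on the log2 scale were recovered among 14236 tested, and 11 of 200 changed by 0.25 among 14242. The simulation changed only 200 genes and gave all genes 1 fixed spread, whereas 35.9% of genes were called in the data. Its recovered shares are therefore not the sensitivity of the real comparison. Replicates differed by more than sampling noise (chi-square per degree of freedom 3.11 to 6.44), and none was counted as a duplicate.

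The gene lists, the members and the rule for named genes were chosen with earlier results of these data known. Genes are named if they are a target, among the 12 largest rises or falls with a mean of 5 CPM or the 8 largest with a mean of 100 CPM (past the threshold and with no overlap of groups), or among the 3 largest rises or falls of a list with a mean of 5 CPM. Lists are described by counts and medians, with no test of their own. Alternatives were pseudocounts of 0.1 and 5, rescaling by median ratios, quantile normalization, filters at 0 and 5 CPM, precision weights, no intensity trend, 2 groups alone, a replicate block and each library left out. Some lists have genes that are not analysed here, and values of a few single genes are not reported here.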

Additional observations from a re-analysis of the deposited data

How the results depend on the processing

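The number of genes that rose was 3556 as deposited and 2333 under quantile normalization, which sets the same distribution in every library; the number that fell and the number differing from siHAND2 stayed within 1.5 times their value under every alternative run. With 1 library left out, between 2746 and 3976 genes rose, between 1250 and 1869 fell and between 2923 and 3992 differed from siHAND2. Of 157 named genes, 131 kept their call under all 19 alternatives, 26 lost it under at least 1 and 0 changed direction. Counts of list members were less stable. Of 70 such counts, 31 changed by more than 1.5 times, or to or from 0, under at least 1 alternative. The mitochondrial ribosomal proteins that fell, for example, numbered from 21 to 44. The same-numbered siCTR and siMYCN libraries deviated together with correlations of 0.166, 0.0757 and 0.177. Pairs with different numbers had correlations of -0.168 to 0.0351, lower than any same-numbered pair. The labels do not say whether the numbers pair the samples, and the main fit did not pair them. With replicate number as a block, 4014 genes rose, 1881 fell and 4689 differed from siHAND2. A fit of the 2 groups alone gives no value against siHAND2. Counting error alone is 17.5% to 21.8% of the value at 1 CPM, so changes of genes near that level are the least certain; that figure covers counting error only.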

Other observations

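Several further gene groups, chosen after their values were seen, moved in siMYCN. Of 37 tested targets of the hypoxia-inducible factors (HIF), the factors that adapt cells to low oxygen, 21 fell and 1 rose, with a median log2 fold change of -0.30, beside 11.4% lower, 24.5% higher and a median of 0.06 among all genes tested. The list shares BHLHE40, FAM162A, LOX, PDK1, HK2, BNIP3, MXI1 and LDHA with those described in the report. Its other falls included DDIT4, an inhibitor of mTORC1, from a mean of 34.8 to 21.9 CPM, P4HA1, which hydroxylates collagen, from 81.4 to 53.2 CPM, and SLC2A1, the main glucose carrier, from 74.7 to 51.5 CPM. VEGFA, the vascular growth factor, had 84.2 and 79.1 CPM and an adjusted p of 0.18, and RORA was the member that rose. Against siHAND2, 5 of the 37 were lower in siMYCN and 8 higher.

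Host genes of small nucleolar RNAs, which carry guides for ribosomal RNA modification in their introns, fell in 17 of 26 and rose in 1 (median -0.26). GAS5 went from a mean of 213 to 149 CPM and SNHG16 from 587 to 395 CPM, and SNHG22 was the member that rose. Semaphorins and plexins, ligands and receptors of axon guidance, rose in 13 of 23 and fell in 2 (median 0.30). PLXNA4, a receptor for secreted semaphorins, rose from a mean of 19.8 to 39.5 CPM, and PLXND1 and SEMA6A were the members that fell. Nicotinic receptor subunits rose in 5 of 6 (median 0.30), CHRNA7 from 173 to 245 CPM. Under median-ratio rescaling 24 HIF targets and 18 host genes fell and 12 semaphorins and plexins rose.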
